A study of Mus musculus with 46 samples.

Results

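Cdx2, Eomes, Elf5, Tfap2c, Gata2, Gata3, Hand1 and Ascl2 encode transcription factors of the mouse trophoblast, the lineage that builds the fetal part of the placenta. They were taken by symbol from a table of 37108 genes and, summed over 22 transcripts, from a table of 35976 gene symbols, and all 8 were found in both. The samples were mouse embryonic fibroblasts (MEF) on the way to induced pluripotent stem cells (iPSC), with established iPSC, untreated MEF and OG2 mouse embryonic stem cells (mES) beside them. None of the samples was a trophoblast culture, so the 8 genes were followed as genes of a lineage other than the one the cells were driven to. RNA-seq had been summarised as FPKM, fragments scaled by transcript length and by the mapped total of the library, a scale on which levels of different genes can be set side by side.

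In the embryo, the outer cells of the morula become trophectoderm while the inner cells keep Oct4 and Nanog and stay pluripotent. Cdx2 and Gata3 act early in the outer cells, and Eomes, Elf5 and Tfap2c keep the trophoblast stem cells that arise from them. Gata2, Hand1 and Ascl2 work in the differentiating placenta, in giant cells and in the spongiotrophoblast. Most of the 8 genes have other uses as well: Cdx2 patterns the posterior embryo and the gut, Eomes acts in mesendoderm, Tfap2c in primordial germ cells and naive pluripotent cells, Gata2 in blood and endothelium, and Gata3 in lymphocytes, skin and mesenchyme.

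Every reprogramming sample came from OG2 MEF, which carry a GFP reporter driven by Oct4 regulatory sequence, and every one received retroviral Oct4. The combinations differed in the second retroviral factor. NanogWT cells (labelled Nanog+Oct4) received native Nanog, and NanogBiD cells (labelled NanogN70+Oct4) received Nanog joined at its N-terminus to the BRG1-interacting domain of SS18, a subunit of BAF chromatin remodelling complexes. Bulk RNA was taken on day (D) 0, 1, 3, 5, 7, 8, 10 and 12, with D0 set after the infections, and the culture was moved from iCD3 medium to N2B27 medium with 2 inhibitors and LIF at about D7. There were 2 libraries for each combination and day, except 1 for NanogBiD at D8, which makes 31 libraries. A further 12 iPSC libraries, 6 for each combination, came from lines named iPSC1 (7 libraries) and iPSC2 (5 libraries), and 2 MEF libraries and 1 mES library completed the set. The iPSC had been expanded over passages. The labels number the iPSC samples, and a number is called a clone here, though the labels do not state that. NanogWT iPSC1 clone 1 gave 2 of the libraries, at different passages. Nothing states that the day replicates were separate cultures, so p-values measure the spread between these samples, which may be technical. Because whole cultures were measured, fewer cells expressing a gene and less RNA per cell cannot be told apart.

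Replicate libraries of the same combination and day correlated across genes at r = 0.961 to 0.990. With at most 2 libraries for a combination and day, a library that stands apart from its group cannot be identified. Relative depth, read from the smallest steps of the FPKM values, was 0.81 to 1.10 in NanogBiD and 0.87 to 1.06 in NanogWT up to D7, but 1.54 to 3.19 in NanogWT from D8 to D12, so in those later days depth and combination cannot be told apart. The 6 fibroblast markers Col1a1, Col1a2, Thy1, Postn, Twist1 and Prrx1 summed to 5416 and 5987 FPKM in the MEF libraries and to 8.31 FPKM in mES, with 4 of the 6 under 1 FPKM in mES. Their sum was 2077 to 2309 FPKM in NanogBiD at D0 and 226 to 328 FPKM at D12, against 2074 to 2507 FPKM and 2085 to 2533 FPKM in NanogWT.

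The 8 genes are protein coding and lie on 6 chromosomes in the GRCm38 annotation, with Elf5, Tfap2c and Gata3 at distant places on chromosome 2. Cdx2 is at chr5:147300805-147307270 on the minus strand, Eomes at chr9:118478212-118486132 on the plus strand, and Elf5 at chr2:103411688-103450989 on the plus strand. Tfap2c is at chr2:172549593-172558622 on the plus strand, Gata2 at chr6:88193891-88207032 on the plus strand, and Gata3 at chr2:9857078-9890034 on the minus strand. Hand1 is at chr11:57828705-57832818 and Ascl2 at chr7:142966829-142969264, both on the minus strand.

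Promoter windows, the 250 bases before the RefSeq start (GRCm38.p6), were held for 6 of the 8 genes, with none for Tfap2c and Hand1. They are printed 5′ to 3′ along the gene for Cdx2, Gata3 and Eomes, since these genes took 3 different courses through the time series: a peak, a decline and a small late difference. Capitals mark matches, on either strand and without overlap, to an octamer (ATGCAAAT, the POU-factor sequence read by Oct4), a SOX sequence (CATTGTT), an AP-2 sequence (GCCNNNGGC, the kind read by Tfap2c), a GATA sequence (AGATAA), a T-box sequence (AGGTGTGA, the kind read by Eomes), a caudal sequence (TTTAT, the kind read by Cdx2), an E-box (CANNTG, the kind read by Hand1 and Ascl2) or an AP-1 sequence (TGACTCA). The first window is chr5:147307250-147307499, whose last 21 bases are annotated as exon, the next is chr2:9878601-9878850, which lies inside the Gata3 gene at an internal start, and the last is chr9:118477939-118478188.
Cdx2: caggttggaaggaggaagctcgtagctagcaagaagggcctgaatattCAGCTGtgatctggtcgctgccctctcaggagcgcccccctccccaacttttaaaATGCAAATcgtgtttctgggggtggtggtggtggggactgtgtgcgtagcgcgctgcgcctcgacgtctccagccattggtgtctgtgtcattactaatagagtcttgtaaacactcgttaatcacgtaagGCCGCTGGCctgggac
Gata3: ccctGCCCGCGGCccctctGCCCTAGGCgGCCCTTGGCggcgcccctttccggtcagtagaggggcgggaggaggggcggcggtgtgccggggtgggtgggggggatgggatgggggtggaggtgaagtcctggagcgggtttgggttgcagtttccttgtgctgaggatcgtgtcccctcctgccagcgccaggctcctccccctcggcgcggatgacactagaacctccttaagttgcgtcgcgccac
Eomes: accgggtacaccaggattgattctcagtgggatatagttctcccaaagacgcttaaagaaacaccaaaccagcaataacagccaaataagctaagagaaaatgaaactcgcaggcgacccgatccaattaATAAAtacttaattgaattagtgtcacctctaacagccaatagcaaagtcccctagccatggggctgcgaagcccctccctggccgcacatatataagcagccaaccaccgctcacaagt
The Cdx2 window holds an E-box 202 to 197 bases before the start, the octamer 147 to 140 bases before it and an AP-2 match 16 to 8 bases before it. The Gata3 window holds 3 AP-2 matches within 246 to 213 bases before the start, and the Eomes window holds a caudal match, in reverse, 120 to 116 bases before it. Of 32841 windows of the same length, 1.60% hold the octamer, 3.29% the SOX sequence, 13.7% the AP-2 sequence, 9.99% the GATA sequence, 1.12% the T-box sequence, 37.3% the caudal sequence, 66.2% an E-box and 4.46% the AP-1 sequence. GC content was 55.2% for Cdx2, 70.0% for Gata3 and 46.4% for Eomes, against a median of 52.4% over all windows. These are matches of letters in the reference sequence, and no binding was measured here.

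Differences were tested with limma on log2(FPKM + 1) across all genes that reached 1 FPKM in at least 2 of the fitted samples, so each log2 difference is on that scale and understates the change of genes at low level. The spread of a gene was estimated once per fit and shared by all groups of that fit, also those that list the gene at 0. A gene was called where the Benjamini-Hochberg adjusted p was under 0.05 and the difference was at least 1 on the log2 scale. This 2-fold limit applies to FPKM + 1. A gene near or under 1 FPKM can change more than 2-fold in FPKM and stay under it. In the time course 5 of the 8 genes passed the filter on low values: Cdx2, Eomes, Tfap2c, Gata2 and Gata3. Elf5 and Hand1 reached 1 FPKM in 0 of 31 libraries and Ascl2 in 1. Cdx2 passed through NanogBiD libraries of D7 and D8 alone (3 libraries) and Eomes through 1 NanogBiD library each of D10 and D12, so for these genes a difference was built into the filter.

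Between the combinations, 0 of the 5 tested genes were called at D0, D1, D3 and D5, where limma called 0.76%, 1.33%, 3.7% and 6.48% of 16842 genes. At an unadjusted p under 0.05 the number of the 5 was 0 at D0, 1 at D1, 1 at D3 and 3 at D5. At D7, 2 were called, Cdx2 and Tfap2c, both higher in NanogBiD, beside 10.4% of all genes. Both D10 and D12 also had 2, Tfap2c and Gata2, again higher in NanogBiD, beside 27.8% and 23.4% of all genes. The median difference of all genes was 0.17 at D12, and all differences stand on that scale. None of the 5 was called lower in NanogBiD than in NanogWT on the 7 days tested, and D8, with 1 NanogBiD library, was not tested.

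**Figure D1:**
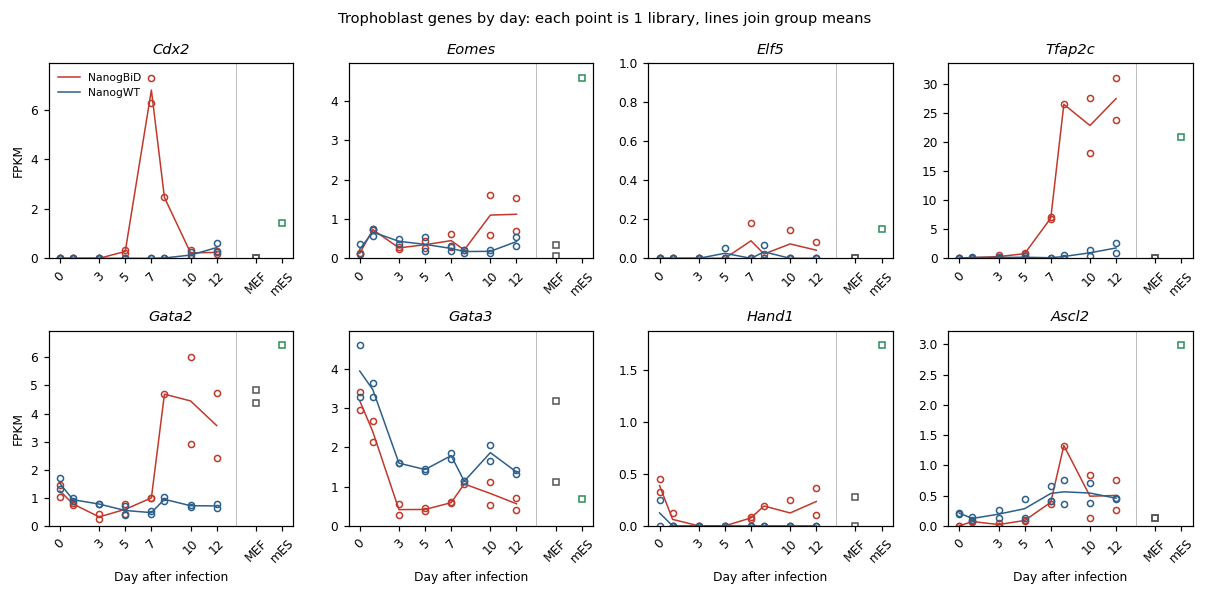
FPKM of the 8 genes (y axes, each with its own scale) against day after infection, with MEF and mES at the right (x axes). Each point is 1 library, red for NanogBiD and blue for NanogWT, and lines join group means; Cdx2 stands at 6.28 and 7.29 FPKM at D7 in NanogBiD, and Tfap2c at 18.1 to 31.1 FPKM from D8 on.

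Cdx2, the caudal-type homeobox factor that starts the trophectoderm programme, was present in a narrow window of the NanogBiD time course. It was listed at 0 in all 6 NanogBiD libraries of D0, D1 and D3, stood at 0.202 and 0.354 FPKM at D5, and reached 7.29 and 6.28 FPKM at D7. The D8 library held 2.45 FPKM, and the later values were 0.126 and 0.316 FPKM at D10 and 0.284 and 0.192 FPKM at D12. The D7 libraries were the highest of the 34 in the gene table, including mES at 1.41 FPKM. In NanogWT no such window was seen through D12, the last day sampled. Cdx2 was listed at 0 in all 10 NanogWT libraries through D7, was 0 and 0.0283 FPKM at D8, 0 and 0.262 FPKM at D10 and 0.262 and 0.605 FPKM at D12, and was listed at 0 in both MEF libraries.

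At D7 the groups did not overlap, and the log2 difference was 2.96. Since the filter let Cdx2 in through its own peak, the test is given from the fit with no filter on low values, over 30494 genes: Cdx2 was higher in NanogBiD at D7 with an SE of 0.11 (n = 2 against 2, adjusted p = 1.31e-11). This SE pools the spread over all time-course groups, several of which list Cdx2 at 0 in every library. The SE and p-value thus do not measure the spread of the D7 libraries alone. In the same fit Cdx2 rose in NanogBiD from D0 to D7 by 2.96 (adjusted p = 7.51e-12), and it fell from D7 to D12 by 2.65 on the log2 scale (adjusted p = 9.45e-12). With the filter these comparisons within NanogBiD called 18.8% and 20% of all genes, and the one from D7 to D12 was added after the peak at D7 was seen. The difference at D5, 0.35 ± 0.13, did not pass the test (adjusted p = 0.0724). By D12 the combinations differed by -0.20 (adjusted p = 0.207), with the NanogWT library of replicate 2 the highest of the 4.

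Cdx2 is also a gene of the posterior embryo, and a posterior mesoderm list of 5 genes was set beside it. Cdx1 passed the filter through both combinations, and was higher in NanogBiD at D7 by 4.71 on the log2 scale, in a comparison where 5.79% of all genes were higher. Cdx4, Tbx6, a paraxial mesoderm T-box factor, and Msgn1, which acts below Tbx6, passed the filter through NanogBiD libraries alone, mostly those of D7, so a difference at D7 and a later decline were built into their choice and they are given by level. Wnt3a, a signal of the posterior embryo, did not pass (0.446 and 1.16 FPKM at D7 in NanogBiD, 0 in NanogWT). Cdx4 had a course like that of Cdx2, at 0.0388 and 0.66 FPKM at D5, 4.92 and 5.67 FPKM at D7, 1.06 FPKM at D8 and at most 0.382 FPKM afterwards in NanogBiD, against at most 0.0503 FPKM in NanogWT. Cdx1 did not: it was 29.6 and 35.3 FPKM at D7, 33.5 FPKM at D8 and 8.01 and 10.9 FPKM at D12 in NanogBiD, and 83.8 FPKM in mES. Tbx6 was 2.26 and 2.33 FPKM and Msgn1 1.78 and 2.39 FPKM at D7 in NanogBiD, and Msgn1 was listed at 0 from D8. T (Brachyury), the primitive streak factor, which also reached 1 FPKM in NanogBiD alone, was 3.71 and 4.2 FPKM at D7 there against 0 and 0.0169 FPKM in NanogWT. T came from a mesendoderm list of 8 genes that went both ways at D7. Sox17, Mesp1, Mixl1 and Foxa2 also had higher means in NanogBiD, at 1.30, 0.764, 0.291 and 0.102 FPKM. Gata6, Gata4 and Gsc had lower ones, at 0.449, 0.0861 and 0.248 FPKM against 1.04, 0.265 and 0.635 FPKM in NanogWT. Whether the same cells held Cdx2 and the posterior or mesendoderm genes was not tested.

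**Figure D2:**
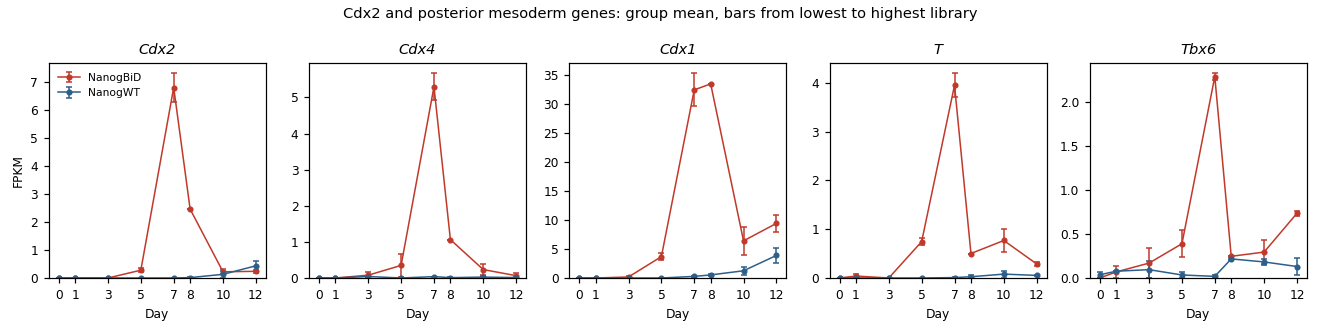
FPKM of Cdx2, Cdx4, Cdx1, T and Tbx6 (y axes) against day (x axes) in NanogBiD (red) and NanogWT (blue), with points for group means and bars from the lowest to the highest library. In NanogBiD, Cdx2 and Cdx4 peak at D7 and are under 0.4 FPKM from D10, while Cdx1 stays at 4.04 FPKM or above.

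Over the 16 group means of the time course, the genes whose levels were most like those of Cdx2 were Gpr83 (Pearson r = 0.975), Cdx4 (0.968) and Mtnr1a (0.963), among 16842 genes. This is a description of 16 points, which share the depth difference of the late NanogWT libraries. In the order of the gene table, NanogBiD D7 came first for Cdx2 (mean 6.79 FPKM), then NanogBiD D8 and mES as 1 library each. The next 4 groups, NanogWT D12 and NanogBiD D5, D12 and D10, had means of 0.221 to 0.434 FPKM with overlapping libraries.

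Tfap2c, the AP-2 factor that trophoblast stem cells, primordial germ cells and naive pluripotent cells share, differed between the combinations on each tested day from D7 on. In NanogBiD it was at most 0.128 FPKM at D0 and D1, 0.567 and 0.0157 FPKM at D3, 0.884 and 0.724 FPKM at D5, and 7.17 and 6.69 FPKM at D7. It stood at 26.5 FPKM at D8, 27.7 and 18.1 FPKM at D10 and 31.1 and 23.9 FPKM at D12. From D8 on these values bracketed the mES library at 20.9 FPKM. In NanogWT it was 0.0527 to 0.318 FPKM through D7, 0.12 and 0.507 FPKM at D8, 0.449 and 1.45 FPKM at D10 and 0.863 and 2.71 FPKM at D12. Both MEF libraries listed it at 0.

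The groups did not overlap at D7, D10 or D12. Tfap2c was higher in NanogBiD by 2.85 ± 0.29 on the log2 scale at D7 (SE, n = 2 against 2, adjusted p = 4.34e-07), by 3.63 at D10 (adjusted p = 5.53e-09) and by 3.43 at D12 (adjusted p = 1.15e-08). Within NanogBiD it rose from D0 to D7 (2.98, adjusted p = 8.32e-08), from D0 to D12 (4.81, adjusted p = 5.03e-11, with 34.7% of all genes called) and from D7 to D12 (1.83 ± 0.29, adjusted p = 3.3e-05). In NanogWT 0 of the 5 members were called from D0 to D7, where limma called 17.7% of all genes and 2 of the 5 had an unadjusted p under 0.05. From D0 to D12 in NanogWT, 2 members were called beside 16.2% of all genes, and Tfap2c was 1 of them (1.31 ± 0.29, adjusted p = 0.00124). That call rested on replicate 2, without which the difference was 0.82 (adjusted p = 0.0948), and the same held for the NanogWT difference from D7 to D12 (1.26, adjusted p = 0.00255, with 11.3% of all genes called, and 0.80, adjusted p = 0.175, without replicate 2).

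The change from D0 to D12 differed between the combinations for 2 of the 5 members, where 23.9% of all genes were called. For Tfap2c the NanogBiD change exceeded the NanogWT change by 3.50 ± 0.41 on the log2 scale (adjusted p = 2.13e-06). Against MEF, which enter these 2 comparisons as shared controls, Tfap2c was the 1 called member in NanogBiD at D12 (4.82, adjusted p = 1.5e-11, with 31% of all genes called). In NanogWT at D12, where 2 members were called, it was higher than in MEF also (1.39 ± 0.28, adjusted p = 0.000468, with 17.2% called), though not without replicate 2 (0.90, adjusted p = 0.0798). Against the mES library, Tfap2c at D12 in NanogBiD differed by 0.37 ± 0.34 (adjusted p = 0.426), in a comparison that called 2 members and 21.6% of all genes.

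Of 5 listed primordial germ cell genes, 1 was higher in NanogBiD at D7, Dppa3, also known as Stella, beside 5.79% of all genes. At D12 it was 5 of 5, beside 13.5% of all genes, but Prdm14 and Nanos3 had passed the filter through NanogBiD libraries alone. Their sum was 97.2 and 169 FPKM in NanogBiD at D12 and 3.13 and 16.5 FPKM in NanogWT, and Dppa3 made up 73.9 and 131 FPKM of the NanogBiD sums. In the pluripotent list, which names Sox2, Esrrb, Zfp42, Dppa5a, Tdgf1 and Sall4, 6 of 6 genes were higher at D7 and at D12, beside the same 5.79% and 13.5% of all genes. The genes most like Tfap2c over the 16 group means were H2-Bl (r = 0.997), Elf3 (0.993), an epithelial ETS factor, and Ccnb1ip1 (0.992). The part of pluripotent or germ-like cells in the Tfap2c level was not tested.

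**Figure D3:**
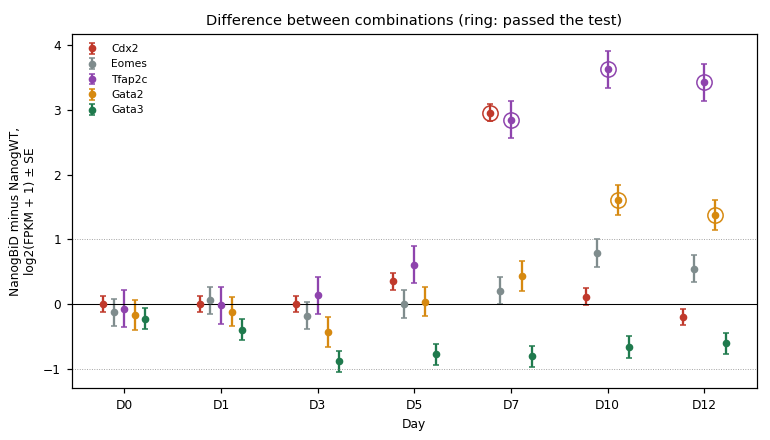
Difference of log2(FPKM + 1), NanogBiD minus NanogWT (y axis), with SE bars, by day (x axis) for the 5 members that passed the filter on low values. Rings mark calls and dotted lines the 2-fold limits, which Cdx2 passes at D7 alone (2.96), Tfap2c at D7, D10 and D12, and Gata2 at D10 and D12, while Gata3 stays between -0.89 and -0.23.

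Gata2, a zinc-finger factor of trophoblast giant cells and of blood progenitors, was already transcribed in the starting fibroblasts. The MEF libraries held 4.38 and 4.82 FPKM, against 1.02 and 1.47 FPKM in NanogBiD and 1.7 and 1.31 FPKM in NanogWT at D0. Gata2 was lower at D0 than in MEF in NanogBiD (-1.33 ± 0.23, adjusted p = 0.000165, with 11.3% of all genes called) and in NanogWT (-1.16 ± 0.23, adjusted p = 0.000983, with 6.77% called), the latter not without replicate 2 (-0.99, adjusted p = 0.0534). These comparisons were added after the values were seen and share the MEF libraries. Gata2 was the 1 member called in each.

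In NanogBiD, Gata2 was 0.81 and 0.753 FPKM at D1, 0.407 and 0.23 FPKM at D3, 0.764 and 0.415 FPKM at D5 and 0.987 and 1.0 FPKM at D7, then 4.69 FPKM at D8, 6.0 and 2.9 FPKM at D10 and 4.74 and 2.4 FPKM at D12. The 5 libraries from D8 on were each above every earlier NanogBiD library. In NanogWT no such step was seen: the values were 0.99 and 0.873 FPKM at D1, 0.388 to 0.785 FPKM from D3 to D5, 0.514 and 0.43 FPKM at D7, 1.01 and 0.877 FPKM at D8, 0.683 and 0.753 FPKM at D10 and 0.77 and 0.65 FPKM at D12. Gata2 was higher in NanogBiD at D10 by 1.60 ± 0.23 (SE, n = 2 against 2, adjusted p = 7.85e-06) and at D12 by 1.37 (adjusted p = 5.79e-05), with no overlap on either day, and at D7 the difference was 0.44 (adjusted p = 0.173).

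From D7 to D12 in NanogBiD, Gata2 rose by 1.15 ± 0.23 on the log2 scale (adjusted p = 0.000429), which was 0.77 (adjusted p = 0.0551) without replicate 1, the library with the higher value. Against D0 the NanogBiD difference at D12, 0.99 (adjusted p = 0.00102), was under the 2-fold limit. The change from D0 to D12 was larger in NanogBiD than in NanogWT by 1.54 ± 0.33 (adjusted p = 0.00108), but 0.95 (adjusted p = 0.12) without replicate 1. At D12, Gata2 was lower than in MEF in NanogWT (-1.71 ± 0.23, adjusted p = 3.51e-06), and the NanogBiD value differed from MEF by -0.34 (adjusted p = 0.21). Of the haemato-endothelial markers, 5 of 7 were under 1 FPKM in NanogBiD at D12, and the list sum was 17.2 and 29.5 FPKM there against 10.5 and 13.3 FPKM in NanogWT. The genes most like Gata2 over the 16 group means were Impdh2 (r = 0.966), Mir8116 (0.964) and Sfn (0.959).

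Gata3, which shares with Cdx2 the start of the trophectoderm programme, fell from its D0 level in both combinations. It was 2.96 and 3.42 FPKM in NanogBiD and 3.29 and 4.61 FPKM in NanogWT at D0, and 1.12 and 3.19 FPKM in MEF. In NanogBiD it was 2.13 and 2.68 FPKM at D1, 0.564 and 0.265 FPKM at D3, 0.388 and 0.45 FPKM at D5, 0.607 and 0.578 FPKM at D7, 1.07 FPKM at D8, 1.11 and 0.54 FPKM at D10 and 0.716 and 0.411 FPKM at D12. In NanogWT it was 3.3 and 3.66 FPKM at D1, 1.61 and 1.59 FPKM at D3, 1.46 and 1.41 FPKM at D5, 1.87 and 1.71 FPKM at D7, 1.14 FPKM in both D8 libraries, 2.07 and 1.67 FPKM at D10 and 1.43 and 1.32 FPKM at D12. The NanogWT libraries were the higher on D1, D3, D5, D7, D10 and D12 with no overlap, while at D0 the groups overlapped and D8 had 1 NanogBiD library.

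Gata3 fell in NanogBiD from D0 to D7 by 1.39 ± 0.16 on the log2 scale (adjusted p = 1.14e-06) and from D0 to D12 by 1.43 (adjusted p = 3.74e-07). In NanogWT it fell from D0 to D12 by 1.05 (adjusted p = 4.37e-05), which was -0.82 (adjusted p = 0.0111), under the 2-fold limit, without replicate 2. Between the combinations the adjusted p passed on 5 days while the difference in FPKM + 1 stayed under the 2-fold limit: -0.89 ± 0.16 at D3 (adjusted p = 0.00129), -0.78 at D5 (0.00232), -0.81 at D7 (0.000958), -0.67 at D10 (0.00197) and -0.61 at D12 (0.00449). At D0 it was -0.23 (adjusted p = 0.54). In FPKM itself the group means at D3, 0.415 in NanogBiD and 1.60 in NanogWT, were more than 2-fold apart. The D3 difference passed the 2-fold limit without replicate 1. The difference of the D0-to-D12 changes was -0.38 ± 0.23 (adjusted p = 0.216).

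The fibroblast markers ran beside Gata3 in part of the series. Between the combinations, their sum was 731 and 829 FPKM at D3 in NanogBiD against 1175 and 1207 FPKM in NanogWT, and 226 to 328 FPKM against 2085 to 2533 FPKM at D12. Of the 6 markers, 2 were lower in NanogBiD at D3, 3 at D7 and 6 at D12, beside 2.45%, 4.65% and 9.97% of all genes. From D0 to D3 both fell in both combinations. The sum went from 2077 and 2309 FPKM to 731 and 829 FPKM in NanogBiD. In NanogWT it went from 2074 and 2507 FPKM to 1175 and 1207 FPKM. Gata3 went from 2.96 and 3.42 FPKM to 0.564 and 0.265 FPKM in NanogBiD. In NanogWT, Gata3 went from 3.29 and 4.61 FPKM to 1.61 and 1.59 FPKM. After D3 the courses parted. The NanogWT sum was 2593 and 2698 FPKM at D10, while Gata3 was 1.14 to 2.07 FPKM from D5 on. The NanogBiD sum was 226 and 328 FPKM at D12, while Gata3 was 0.716 and 0.411 FPKM. The genes most like Gata3 over the 16 group means were Sgcd (r = 0.935), a sarcoglycan, Thbs1 (0.926), a matrix glycoprotein of fibroblasts, and Oraov1 (0.925). The part of the remaining fibroblasts in the Gata3 level was not tested.

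Eomes, the T-box factor of trophoblast stem cells and mesendoderm, stayed low. In NanogBiD it was 0.116 and 0.132 FPKM at D0, 0.734 and 0.726 FPKM at D1, 0.212 to 0.619 FPKM from D3 to D8, 1.61 and 0.583 FPKM at D10 and 1.54 and 0.704 FPKM at D12. In NanogWT it was 0.364 and 0.102 FPKM at D0, 0.58 and 0.755 FPKM at D1, 0.131 to 0.534 FPKM from D3 to D10 and 0.543 and 0.309 FPKM at D12. Before D10 the highest libraries of both combinations were those of D1, and the groups did not overlap at D10 and D12. The log2 difference between combinations was 0.79 ± 0.21 at D10 and 0.55 at D12, under the 2-fold limit on both days. At D10 it passed the limit without replicate 2. Eomes had passed the filter through NanogBiD libraries of these same days, so a difference there was built into its choice and no p-value is given. Against mES, at 4.6 FPKM, Eomes at D12 in NanogBiD was lower by 1.43 ± 0.26 on the log2 scale (adjusted p = 0.000179, n = 2 against 1). The 1 mES library gives no spread of its own and is assumed to vary like the other groups. The genes most like it over the 16 group means were Msantd3 (r = 0.890), Nova1 (0.879) and Enc1 (0.876).

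Ascl2, the basic helix-loop-helix factor of the spongiotrophoblast, did not pass the filter in the time course, where 1 library, NanogBiD at D8, reached 1 FPKM (1.33 FPKM). In NanogBiD it was listed at 0 in both D0 libraries and was at most 0.0916 FPKM through D5, 0.415 and 0.364 FPKM at D7, 0.847 and 0.134 FPKM at D10 and 0.751 and 0.254 FPKM at D12. In NanogWT it was 0.2 and 0.218 FPKM at D0, 0.0995 to 0.436 FPKM from D1 to D5, 0.654 and 0.418 FPKM at D7, 0.37 and 0.756 FPKM at D8, 0.378 and 0.707 FPKM at D10 and 0.445 and 0.468 FPKM at D12. The libraries of the combinations overlapped at D10 and D12, while at D7 both NanogBiD libraries lay just under the lower NanogWT library and at D8 the NanogBiD library lay above both of NanogWT. Fitted with no filter on low values, the log2 difference between the combinations was -0.27 at D0 to 0.02 at D12 over the 7 days tested, with limma adjusted p of 0.603 or more. Ascl2 entered the fit with MEF and mES through the mES library itself and 1 NanogBiD library. With no filter, NanogBiD at D12 was lower than the 2.99 FPKM of mES by 1.43 ± 0.22 on the log2 scale (adjusted p = 7.59e-05, n = 2 against 1), with the spread of the mES arm again taken from the other groups. Cdx2 in the comparison with mES was -0.96 ± 0.15, under the 2-fold limit.

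Hand1 and Elf5, the factors of giant cells and of committed trophoblast stem cells, were at or near 0. Hand1 was listed at 0 in 22 of 34 libraries, and its highest value was 1.74 FPKM in mES. In NanogBiD it was 0.324 and 0.452 FPKM at D0, 0.125 and 0 FPKM at D1, 0 at D3 and D5, 0.0886 and 0.0648 FPKM at D7, 0.191 FPKM at D8, 0.248 and 0 FPKM at D10 and 0.361 and 0.109 FPKM at D12. In NanogWT it was listed at 0.249 and 0 FPKM at D0 and at 0 in all 14 later libraries, which include the deepest. Fitted with no filter, the log2 difference of Hand1 between the combinations at D12 was 0.30 ± 0.10 (limma adjusted p = 0.0321), under the 2-fold limit. Elf5 was listed at 0 in 27 of 34 libraries, with at most 0.179 FPKM in NanogBiD (D7), 0.0664 FPKM in NanogWT (D8) and 0.151 FPKM in mES. No library held Elf5 at a level that passed the filter.

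The genes that work with the 8 in the trophoblast were taken in lists, to be read against the 5.79% of all genes that were higher in NanogBiD at D7 and the 13.5% at D12. Of 12 trophoblast stem cell partners, 3 were higher in NanogBiD at D7 (Esrrb 2.46, Sox2 3.31 and Id2 1.72 on the log2 scale; median 0.61) and 5 were higher and 1 lower at D12 (median 0.73). The first pair named is shared with the pluripotent network, and Id2 encodes an inhibitor of helix-loop-helix factors. Of 10 trophoblast epithelium genes, 3 were higher at D7 (Krt8 1.19, Cdh1 2.79 and Aqp3 1.68; median 0.49), and at D12 9 were higher and 1 lower (median 2.00 against 0.17 over all genes), of which Plet1 passed the filter through NanogBiD alone. The lower one was Lgals3, encoding galectin-3 (-2.76). At D12 the list summed to 138 and 243 FPKM in NanogBiD and to 74.6 and 92.5 FPKM in NanogWT. The pluripotent mES library, at 447 FPKM, stood above both. Krt8, a simple-epithelium keratin, was 2.96 and 3.88 FPKM at D7 and 8.39 and 28.8 FPKM at D12 in NanogBiD, against 0.0645 and 0.886 FPKM in NanogWT at D12, and 26.1 FPKM in mES. Cdh1, E-cadherin, was 33.3 and 49.8 FPKM in NanogBiD and 2.46 and 7.15 FPKM in NanogWT at D12.

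Of 15 listed genes of differentiated trophoblast, 9 were tested, but 7 of these (Gcm1, Synb, Dlx3, Mmp9, Phlda2, Esx1 and Sct) would not have passed the filter without the NanogBiD libraries. A higher level in NanogBiD was thus built into their choice, except for Mmp9, which needed libraries of both combinations. The counts are therefore no measure of the list, and the differences of these genes no independent result. At D7 3 were higher in NanogBiD: Dlx3 (1.34), Peg10 (4.67) and Phlda2 (2.46). At D12 5 of the 9 were higher, Synb (1.07), Peg10 (2.39), Phlda2 (2.19), Esx1 (1.02) and Sct, the secretin gene, and none was lower. Peg10, an imprinted retrotransposon-derived gene that the placenta requires, was 11.8 and 12.5 FPKM at D5, 142 and 161 FPKM at D7, 243 FPKM at D8 and 73.5 to 133 FPKM at D12 in NanogBiD. In NanogWT it was 4.3 and 5.75 FPKM at D7 and 14 and 23.3 FPKM at D12, and it was 16.5 and 17.5 FPKM in MEF and 20.4 FPKM in mES, so the NanogBiD libraries of D7, D8 and D12 stood above both end points. Phlda2, an imprinted gene that limits placental growth, was 5.63 and 8.05 FPKM at D7, 45.3 FPKM at D8 and 3.74 and 9.27 FPKM at D12 in NanogBiD. Gcm1, the syncytiotrophoblast factor, was 2.26 FPKM at D8 and 1.23 and 3.18 FPKM at D10 in NanogBiD, and is given by level alone.

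Pou5f1 (Oct4), methylation genes and Setdb1, which hold back trophoblast fate in pluripotent cells, made up the last of these lists. At D7 2 of its 7 genes were higher in NanogBiD, Dnmt3b (2.50) and Uhrf1 (1.45), and 1 was lower, Pou5f1 (-1.27), whose reads cannot be told apart from those of the retroviral Oct4. At D12 5 were higher and 1 lower, with a median log2 difference of 1.46. In the imprinted domain around Ascl2, 1 of 6 tested genes was higher at D7 (Phlda2) and 2 at D12 (Phlda2 and Th, tyrosine hydroxylase), both of which passed the filter through NanogBiD alone. The other 4 tested genes of the domain were not called at D12.

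**Figure D4:**
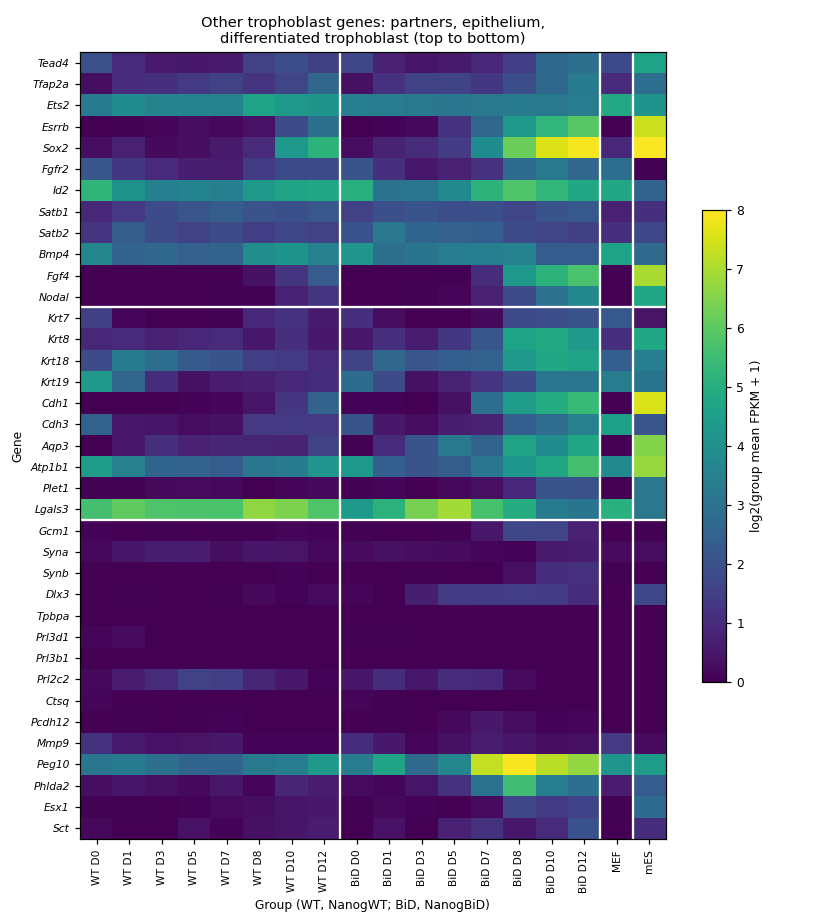
Heat map of log2(group mean FPKM + 1), from dark (0) to yellow (8), for the partner, epithelium and differentiated trophoblast genes (rows, in that order) in the NanogWT and NanogBiD days, MEF and mES (columns). Keratins, Cdh1 and Aqp3 are brighter from D8 in NanogBiD, Peg10 is brightest at D8 in NanogBiD (243 FPKM), and Tpbpa, Prl3b1 and Ctsq stay dark in every group.

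In the iPSC table, 6 of the 8 genes passed the filter, all but Elf5 and Hand1. Cdx2, Eomes, Tfap2c and Ascl2 were higher in the 12 iPSC than in the 2 MEF libraries, in a comparison that called 40.4% of 13434 genes. These 4 passed the filter through iPSC and mES alone, so their tests are given from the fit with no filter, while Gata2 and Gata3, which MEF hold as well, were not called. Cdx2 was 1.89 to 12.2 FPKM in iPSC against 0 in both MEF libraries (log2 difference 2.97 ± 0.51, adjusted p = 0.000565). Tfap2c was 5.79 to 29.0 FPKM against 0 (4.14 ± 0.40, adjusted p = 8.1e-06). Eomes was 0.351 to 6.88 FPKM against 0.0437 and 0.276 FPKM (1.53 ± 0.50, adjusted p = 0.0268), a call that, with the filter, was lost without MEF replicate 1 (1.39, adjusted p = 0.0863). Ascl2 was 0.426 to 4.6 FPKM against 0.0991 and 0.108 FPKM (1.37 ± 0.37, adjusted p = 0.0103). All 12 iPSC libraries held more Cdx2 than the 1.26 FPKM of the mES library. Against that 1 library limma called 0 of 6 members and 4.44% of all genes, with 2 of 6 at an unadjusted p under 0.05. Cdx2 differed by 1.79 ± 0.65 (adjusted p = 0.104) and Ascl2 by -1.17 ± 0.47 (adjusted p = 0.14). Without NanogWT iPSC1 clone 2, the library with the lowest Cdx2, Cdx2 was called.

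Between NanogBiD and NanogWT iPSC limma called 0 of the 6 members and 0% of all genes, with 0 of the 6 and 231 of 13434 genes at an unadjusted p under 0.05. Cdx2 was 7.38 ± 3.76 FPKM in NanogBiD iPSC and 8.07 ± 4.15 FPKM in NanogWT iPSC (SD, n = 6 each; log2 difference -0.08 ± 0.37, SE, limma adjusted p = 1). Tfap2c was 16.03 ± 7.52 and 19.3 ± 4.53 FPKM, Eomes 2.61 ± 1.64 and 2.79 ± 2.10 FPKM, and Gata3 2.69 ± 2.26 and 3.33 ± 2.23 FPKM. Gata2 was 3.36 ± 2.39 and 9.41 ± 13.6 FPKM, with NanogWT iPSC2 clone 5 at 36.7 FPKM and the other NanogWT libraries at 0.892 to 7.30 FPKM. Its log2 difference was -0.80 ± 0.58 (SE, limma adjusted p = 1).

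The passage number differed between the lines, and the effects of the 2 cannot be told apart. Between the lines, limma called 0 of 6 members for iPSC1 against iPSC2 beside 0.782% of all genes, and 2 of 6, Gata3 and Ascl2, had an unadjusted p under 0.05. Gata3 was 4.07 ± 2.17 FPKM in iPSC1 (SD, n = 7) and 1.51 ± 1.04 FPKM in iPSC2 (SD, n = 5; log2 difference 0.89 ± 0.41, limma adjusted p = 0.211). Ascl2 was 2.94 ± 1.32 and 1.17 ± 0.91 FPKM (0.83 ± 0.27, limma adjusted p = 0.0964). Hand1, under the filter, was 0.171 to 0.876 FPKM in the 7 iPSC1 libraries and 0 to 0.113 FPKM in the 5 iPSC2 libraries, so the lines did not overlap. Fitted with no filter on low values, its log2 difference was 0.53 ± 0.11 (limma adjusted p = 0.0439), under the 2-fold limit. Elf5 was at most 0.122 FPKM in iPSC and 0.168 FPKM in mES.

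**Figure D5:**
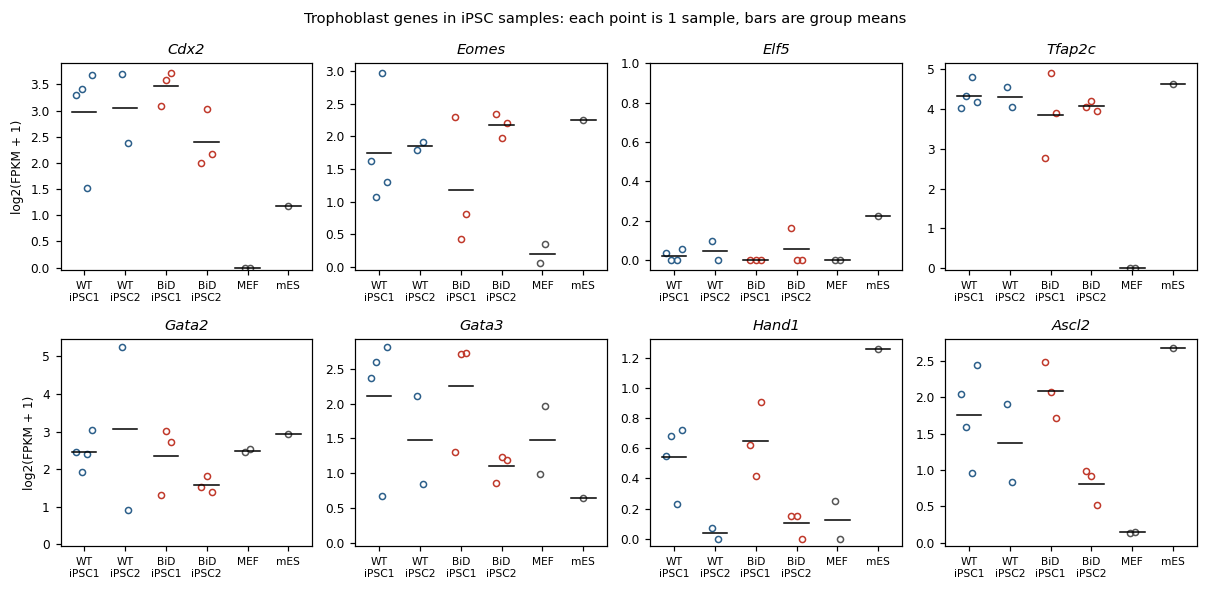
Levels as log2(FPKM + 1) (y axes) of the 8 genes in NanogWT (blue) and NanogBiD (red) iPSC by line, MEF and mES (x axes), with a point for each library and a bar for each group mean. The combinations cover nearly the same Cdx2 range, 2.98 to 12.2 FPKM in NanogBiD and 1.89 to 12.0 FPKM in NanogWT, and NanogWT iPSC2 clone 5 stands alone for Gata2 at 36.7 FPKM.

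Among the iPSC libraries Gata3 fell into a low and a high set, 6 libraries of 0.588 to 1.47 FPKM and 6 of 3.31 to 6.04 FPKM. The high set was NanogWT iPSC1 clone 1 with its other library, NanogWT iPSC1 clone 3, NanogWT iPSC2 clone 5, and NanogBiD iPSC1 clones 8 and 9. These libraries also held the 6 highest Cdx2 values, 8.82 to 12.2 FPKM, and had Eomes at 0.351 to 2.45 FPKM against 2.79 to 6.88 FPKM in the low set. Because the libraries lie in separate sets that were seen in the data, no correlation between Cdx2 and Gata3 and no test is given. The 6 fibroblast markers summed to 7.51 to 1330 FPKM in the high set and to 1.85 to 40.5 FPKM in the low set, with NanogBiD iPSC1 clone 9 at 1330 FPKM and NanogWT iPSC1 clone 3 at 419 FPKM. MEF, at 6477 and 6055 FPKM of these markers, had Cdx2 at 0 and Gata3 at 0.993 and 2.88 FPKM. The part of fibroblast RNA in the difference between the sets was not tested.

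NanogWT iPSC2 clone 5, with the highest Gata2 of the iPSC libraries, was also the highest of them in the epithelial genes Krt8 (62.3 FPKM) and Krt18 (50.3 FPKM), in Peg10 (83.4 FPKM) and in Tfap2a (12.7 FPKM), the AP-2 paralogue of Tfap2c. Its trophoblast epithelium genes summed to 422 FPKM, against 215 to 296 FPKM in the other 11 iPSC libraries and 426 FPKM in mES. Its differentiated trophoblast genes summed to 88.2 FPKM, mostly Peg10, against 10.0 to 35.5 FPKM in the other iPSC and 28.4 FPKM in mES. Its Cdx2 (12.0 FPKM) and Gata3 (3.31 FPKM) lay within the range of the others, and Elf5 (0.0695 FPKM) and Hand1 (0.0523 FPKM) stayed near 0. Over the 12 iPSC libraries Krt18 was the gene most like Gata2 (r = 0.963), followed by Itga3 (0.942) and Sfxn3 (0.938), a likeness in which this 1 library has a large share. For Cdx2 the most alike were Oas1a (0.966), Mpc2 (0.959) and Lif (0.957), and for Gata3 Pramel7 (0.985), Slc1a1 (0.982) and Slco2a1 (0.980), likenesses that run over the same low and high sets of libraries.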

How the data were processed

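RNA-seq libraries of 46 samples were analysed. Per the submitters' processing notes, reads were handled with Trim Galore (0.6.4), HISAT2 (2.2.1), build mm10, and StringTie (2.2.1); the annotation and strand setting are not given in the sources used here. The authors deposited FPKM per gene (34 libraries) and per transcript (15 libraries), and transcripts were summed by symbol. FPKM removes read counts, so depth was estimated from the smallest steps between low values. MEF and mES appear in both tables with unequal values, and each table was tested alone. Values entered limma (3.58.1, R 4.3.3) as log2(FPKM + 1), computed from the deposited FPKM, after a filter of 1 FPKM in 2 libraries, in fits of 31, 34 and 15 libraries (16842, 17049 and 13434 genes). Groups came from the sample labels. A call needed Benjamini-Hochberg adjusted p under 0.05 and a 2-fold difference in FPKM + 1. Tested on simulated data, the fits recovered 195, 191 and 189 of 200 altered genes, in the same order. The altered genes had a mean log2(FPKM + 1) above 1 and were shifted by 2 on that scale. Recovery of smaller changes, or of genes at lower level, was not tested. The 8 genes and the lists were chosen with earlier results of these data known. Lists are described by counts of calls, some with a median, and the list genes named by their own test or by level. The named genes are the 8, list genes called or given by level, and the 3 most alike by Pearson r. Alternatives were other pseudocounts, filters, scalings, sample sets, a replicate block and leaving out libraries. NanogWT iPSC1 clone 1 and its other library correlated at r = 0.976, within the 0.894 to 0.990 of iPSC pairs, and both were kept.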

Additional observations from a re-analysis of the deposited data

Results flagged for a closer look

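Among the iPSC, 3 FPKM values stood apart from the rest of their group of 6 by the ratio of the gap to the group's range, for which the critical value is 0.625. The ratio was taken on FPKM and not on log2(FPKM + 1), the scale of the tests, on which a high value lies closer to the rest. Gata2 was 36.74 FPKM in NanogWT iPSC2 clone 5, with the next library at 7.30 FPKM (ratio 0.821). Eomes was 6.884 FPKM in NanogWT iPSC1 clone 2, with the next at 2.789 FPKM (ratio 0.707). Elf5 was 0.1221 FPKM in NanogBiD iPSC2 clone 1 and listed at 0 in the other 5 libraries of its group, a level too low to read further. Of 16 groups of values looked at this way, about 1 in 20 is marked by chance if values follow a normal distribution, which FPKM need not.

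The change from D0 to D12 differed between the combinations, by the interaction term, for Tfap2c (3.503 on the log2 scale, larger in NanogBiD) and for Gata2 (1.536, larger in NanogBiD, and lost without replicate 1).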

How the results depend on the processing

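Of 250 recomputed counts of called members, 211 were within 1.5 times the reported count, and of 309 recomputed member calls 299 were kept, 10 were lost and 0 changed sign. The rest are given here, by setting; what lay behind them was not tested beyond the setting itself.

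With no 2-fold limit, the members called between the combinations numbered 1 at D3 and D5 and 4 at D10 and D12, 5 for NanogBiD D12 against D0, 2 for NanogWT D7 against D0, 4 for NanogBiD D12 against MEF and against mES, and 2 for NanogWT D12 against D7 and NanogWT D0 against MEF. With a pseudocount of 0.1 they numbered 1 at D3, 2 at D5 (Cdx2 and Gata3), 4 at D10, 5 for NanogBiD D12 against D0, 4 for NanogBiD D12 against MEF, and 2 for NanogWT D7 against D0 and D12 against D7. Scaled to a common total they numbered 1 at D3, D5 and NanogWT D7 against D0, 4 for NanogBiD D12 against D0, 3 for NanogBiD D12 against MEF and 2 for NanogWT D12 against D7. With quantile normalization they numbered 2 for NanogWT D7 against D0 and NanogBiD D12 against MEF and 4 for NanogBiD D12 against mES, while Tfap2c for NanogWT D12 against D0 was 0.91 and Gata2 for NanogBiD D12 against D7 was 0.96, both under the limit. In fits of the compared groups alone, NanogWT D12 gave 1 against D0 and 0 against D7.

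Leaving out libraries gave 0 to 1 called at D3, 2 to 4 for NanogBiD D12 against D0, 0 to 1 for NanogWT D7 against D0, 0 to 2 for NanogWT D12 against D0, 1 to 2 for the interaction, 2 in each case for NanogBiD D12 against MEF, 1 to 2 for NanogWT D12 against MEF, 0 to 1 for iPSC against mES and for NanogWT D12 against D7, and 2 to 4 for NanogBiD D12 against mES.

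Same-numbered replicates of the combinations deviated from their group means with r = -0.0647 to 0.395, the highest at D7 (0.395) and D0 (0.227). The numbers were not taken to pair libraries, and pairing within a day was not tested. Blocking on the replicate number left the count of called members the same in 19 of 19 comparisons (0 to 3). That block is 1 term for all days and cannot take up a pairing of single days. The median of all genes for NanogBiD D12 against D0 was 0.343, 0.433 after a common total and -0.013 after quantile normalization. With 2 libraries a group and low FPKM, differences of genes near or under 1 FPKM rest on few reads, and the FPKM give no counting interval.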
